A study of Citrus maxima and Citrus sinensis with 8 samples.

Results

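Phosphatases release phosphate from organic compounds, and plants short of phosphorus make more of many of them. The 5 genes described here are phosphatase-related genes outside the purple acid phosphatases, among 30151 genes measured in root tips of Citrus seedlings given aluminum (Al). They comprised 3 haloacid dehalogenase (HAD)-like hydrolases, Cs8g18760, Cs2g11750 and Cs7g22250, an alkaline-phosphatase-like gene, Cs3g03130, and a phosphatidic acid phosphatase-related gene, Cs1g12410. They were taken by gene ID from the genes that the study listed as responsive to low phosphorus, a list drawn up on calls in these same libraries. Cs8g18760, Cs2g11750 and Cs3g03130 had been listed for C. sinensis, and Cs7g22250 and Cs1g12410 for C. grandis. The Al response of a gene in the species for which it was listed is therefore given below as a description with no test, and the other species is tested. In that other species the study's own test, on these same libraries, had not listed the gene. The outcome there is thus not independent of the listing.

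Seedlings of Citrus sinensis, an Al-tolerant species, and of Citrus grandis, an Al-intolerant one, grew in sand for 18 weeks with an acidic nutrient solution holding 1 mM Al (+Al) or 0 mM Al (control). Both treatments of both species, 4 groups in all, had 2 libraries each. Each library was made from the root tips of 5 seedlings pooled together, so that the spread between the 2 libraries of a group is that between pools. Levels are FPKM, fragment counts corrected for transcript length and for the number of mapped fragments, which the authors computed for both species on the genome of C. sinensis.

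The HAD superfamily is a large group of hydrolases, many of which remove phosphate from sugars, nucleotides or other small molecules. Alkaline phosphatases are a separate family of metal-dependent phosphate ester hydrolases. Phosphatidic acid phosphatases remove the phosphate of phosphatidic acid to leave diacylglycerol, which is a precursor of galactolipids and other lipids, and membrane lipids can be a source of phosphate in phosphorus-starved plants. Al can lower the supply of phosphorus to a plant by precipitating phosphate in the medium and in the root.

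The gene annotation deposited with the values carried these names unevenly. Cs7g22250 had the function term phosphatase activity and the location terms membrane and cytoplasmic part. Cs8g18760 and Cs2g11750 had only the broad term catalytic activity, and the description of Cs2g11750 placed it beside the HAD-like hydrolase domain-containing protein 3. Cs3g03130, described as an alkaline-phosphatase-like family protein, had the term exonuclease activity. Cs1g12410, described as phosphatidic acid phosphatase-related, had the terms CDP-alcohol phosphatidyltransferase activity and phosphatidylcholine biosynthetic process, which are those of a lipid-synthesizing transferase and not of a phosphatase. The names are therefore used here as descriptions only.

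The FPKM of a library summed to between 713378.2 and 859570.4, and the sum was lowest in C. grandis +Al library 1, where a single gene held 3.8% of it. The same library was also the shallowest, at 0.71 of the depth of C. sinensis control library 1. Genes were on average lower in C. grandis +Al library 1 than in library 2 (median log2 difference -0.395). Genes matched by the keywords histone and cyclin B, taken as signs of dividing cells and including 1 histone methyltransferase, summed over 23 genes to 2139.81 and 2153.92 FPKM in C. sinensis +Al, against 1570.65 and 1473.41 FPKM in C. sinensis control, and 4 of the 23 were listed at 0 in each of these groups. In C. grandis they summed to 1201.18 and 1140.61 FPKM in +Al and to 1238.83 and 1179.22 FPKM in control roots. Leaf genes, 33 for photosystems and chlorophyll-binding proteins, summed to 130.78 and 127.23 FPKM in C. sinensis +Al, against 167.04 and 172.34 FPKM in C. sinensis control. They summed to 230.16 and 263.39 FPKM in C. grandis +Al, against 250.39 and 223.12 FPKM in C. grandis control. The 4 root cap and Casparian strip genes were all present in every group, and summed to 94.37 and 94.1 FPKM in C. sinensis +Al, against 64.38 and 62.59 FPKM in C. sinensis control. Their sums in C. grandis were 54.62 and 59.64 FPKM with Al, against 59.46 and 53.32 FPKM without. The sums of all 3 lists thus moved with Al without overlap in C. sinensis, but single genes did not all follow their sum. Of the root cap and Casparian strip genes, XLOC_018592 was lower in C. sinensis +Al (log2 difference from control -0.997). Cs8g14760 (1.20), Cs6g14190 (0.98) and Cs7g15380 (0.54) were higher. Leaf genes also differed in direction, with Cs4g06040 at 0.63 and Cs8g13660 at -1.09. The part of cell composition in the C. sinensis values below was not tested, and in bulk root tips a change in the number of cells of a type and a change in RNA per cell cannot be told apart.

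The 5 genes covered a wide range of levels. The highest was Cs1g12410, whose mean in C. sinensis +Al was above 94.5% of the genes with at least 1 FPKM, and the lowest was Cs8g18760 in C. grandis +Al, above 22.2% of them. Control roots of both species were closer to each other for each gene than +Al roots were.

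**Figure D1:**
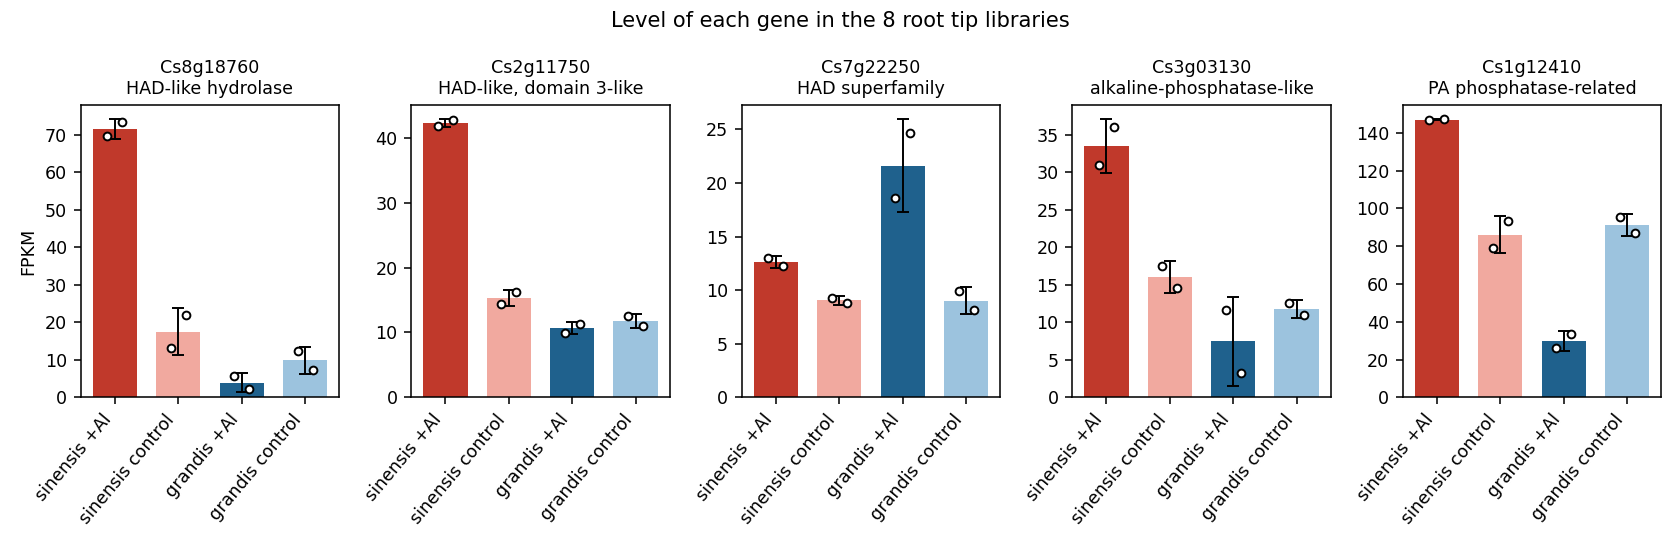
FPKM of each gene in the 4 groups, with 1 panel a gene and each panel on its own scale from 0. Bars are means of 2 libraries, whiskers SD and points single libraries. Cs8g18760 is far higher in C. sinensis +Al (69.7 and 73.4 FPKM) than in any other group, Cs7g22250 is highest in C. grandis +Al, and Cs1g12410 is lowest there.

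Cs8g18760, a HAD-like hydrolase, had 69.7 and 73.4 FPKM in C. sinensis +Al, against 13.1 and 22.0 FPKM in C. sinensis control. In C. grandis it had 5.66 and 2.13 FPKM in +Al, against 12.4 and 7.30 FPKM in control roots. Both +Al libraries lay above both controls in C. sinensis, while in C. grandis both lay below them. Group means ran in the order C. sinensis +Al (71.5 ± 2.62 FPKM), C. sinensis control (17.6 ± 6.25), C. grandis control (9.85 ± 3.61) and C. grandis +Al (3.89 ± 2.50; SD, n = 2 each). The SDs of the last 3 groups were large, and the lowest C. sinensis control library (13.1 FPKM) was close to the highest C. grandis control library (12.4 FPKM). In C. sinensis the log2 fold change of +Al over control was 2.07 ± 0.23 (SE), the largest of the 5 genes in that species. This was the comparison that put the gene on the list, which the study did with its own edgeR values.

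In C. grandis, whose libraries had not put it on the list, Cs8g18760 fell by 1.43 on the log2 scale (SE 0.39, 95% interval -2.22 to -0.63), with an adjusted p of 0.00857 by limma over 18677 genes. Calls needed an adjusted p no higher than 0.05 together with a log2 fold change of 1 or more in either direction. At the same limits, the study's own test on these libraries had listed none of the 3 genes tested here in C. grandis. Of those 3, Cs8g18760 alone passed both limits here, unlike in the study. Over all tested genes 12.5% passed both limits and 7.25% did so as lower. The call rested on every library: the adjusted p was 0.0715 without C. grandis +Al library 1 (log2 fold change -2.11), 0.283 without +Al library 2 (-0.74), 0.633 without control library 1 (-1.05) and 0.103 without control library 2 (-1.80). It was also lost after scaling the libraries by their median ratio (adjusted p = 0.155 by limma) and with no filter on low values (0.121), at nearly the same fold change. Prior degrees of freedom are the weight that limma gives to the spread of other genes. They were 36.2 in the main fit, 3.17 with the scaling and 7.23 with no filter. With all 8 libraries sharing the spread they were 4.79, and the call stayed (adjusted p = 0.0476 by limma). Whether this weight lost the call was not tested.

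Cs2g11750, the HAD-like domain 3-like gene, had 41.9 and 42.7 FPKM in C. sinensis +Al, against 14.4 and 16.2 FPKM in C. sinensis control. Its libraries agreed closely within each group, and its +Al mean was 2.76 times its control mean. The log2 fold change in this comparison, the one that put it on the list, was 1.46 ± 0.084 (SE). In C. grandis it had 9.98 and 11.4 FPKM in +Al, against 12.5 and 11.0 FPKM in control roots, and the groups overlapped. The log2 fold change in C. grandis was -0.14 ± 0.31 (SE, adjusted p = 0.842 by limma), with a 95% interval of -0.77 to 0.49. Of the 4 groups only C. sinensis +Al stood apart, and the other 3 had means of 15.3 ± 1.29, 10.7 ± 0.978 and 11.8 ± 1.07 FPKM in C. sinensis control, C. grandis +Al and C. grandis control (SD, n = 2 each).

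Cs7g22250, the HAD gene annotated with phosphatase activity, was the 1 gene of the 5 with its highest level in C. grandis +Al. It had 18.6 and 24.7 FPKM in C. grandis +Al, against 9.94 and 8.12 FPKM in C. grandis control. This was a log2 fold change of 1.24 ± 0.30 (SE), in the comparison that put the gene on the list. In C. sinensis it had 13.0 and 12.2 FPKM in +Al, against 9.30 and 8.77 FPKM in control roots. Both +Al libraries were above both control libraries in each species. The difference in C. sinensis, tested in libraries that had not put the gene on the list, was 0.48 on the log2 scale (SE 0.098, 95% interval 0.23 to 0.72), with an adjusted p of 0.0155 by limma. It passed the adjusted p and missed the fold limit. Leaving out any 1 of the 4 libraries took the adjusted p to between 0.0629 and 0.115, and letting all 8 libraries share the spread took it to 0.154.

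Cs3g03130, the alkaline-phosphatase-like gene, had 30.9 and 36.0 FPKM in C. sinensis +Al, against 17.5 and 14.5 FPKM in C. sinensis control. Its log2 fold change there, in the comparison that put it on the list, was 1.06 ± 0.12 (SE), just inside the limit of 1. Without single libraries it ranged from 0.925 to 1.195, and was under that limit without C. sinensis +Al library 2 (0.951) or control library 2 (0.925). In C. grandis it had 11.6 and 3.29 FPKM in +Al, against 12.6 and 10.9 FPKM in control roots. The 2 C. grandis +Al libraries thus differed more from each other than either control did from the other, and library 1 lay between the controls. An SE and interval by limma lean on the spread of other genes, so the gap between these +Al libraries enters them only in part. The log2 fold change of Cs3g03130 in C. grandis was -0.91 ± 0.38 (SE, 95% interval -1.68 to -0.13), with an adjusted p of 0.111 by limma, and did not pass. The value was set by which +Al library was used, at -1.80 without library 1 (adjusted p = 0.0386, past both limits) and -0.01 without library 2 (adjusted p = 0.974). Library 1 was the higher of the 2 for Cs3g03130 and Cs8g18760, although genes were on average lower in it.

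Cs1g12410, the phosphatidic acid phosphatase-related gene, was expressed several times above the other 4 in control roots. It had 26.2 and 33.4 FPKM in C. grandis +Al, against 95.5 and 87.0 FPKM in C. grandis control. This was a log2 fold change of -1.62 ± 0.25 (SE), in the comparison that put the gene on the list. It had 146.9 and 147.04 FPKM in C. sinensis +Al, against 79.1 and 93.2 FPKM in C. sinensis control. The 2 species thus had Cs1g12410 on opposite sides of control roots with no overlap in either. In C. sinensis, whose libraries had not put it on the list, the log2 fold change was 0.77 (SE 0.085, 95% interval 0.56 to 0.99) with an adjusted p of 0.00199 by limma, a 1.71-fold higher level that fell just outside the fold limit. Its adjusted p stayed between 0.0134 and 0.0325 without each of the 4 libraries in turn.

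**Figure D2:**
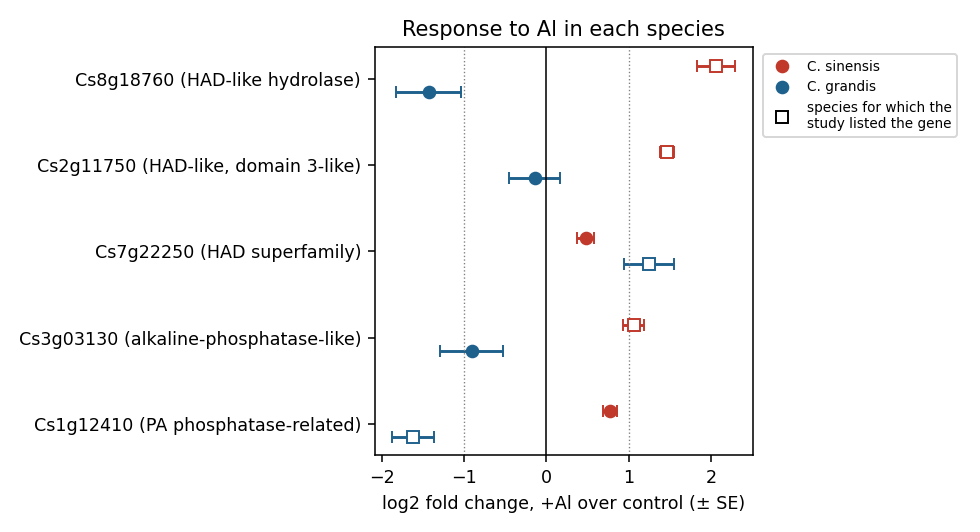
Log2 fold change of +Al over control for each gene in C. sinensis (red) and C. grandis (blue), with SE from limma. Open squares mark the species for which the study listed the gene, filled circles the species tested here, and dotted lines the fold limit of 1. Cs8g18760, Cs3g03130 and Cs1g12410 lie above 0 in C. sinensis and below 0 in C. grandis, and of the filled circles only Cs8g18760 in C. grandis (-1.43) passes both limits.

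Of the 2 genes tested in C. sinensis, 0 passed both limits, against 8.53% of the 19152 genes tested. The study had listed neither gene for C. sinensis at the same limits on these libraries, so that count largely repeats the listing. Both genes passed the adjusted p alone as higher in +Al, as did 18.6% of all tested genes. Both also had groups that did not overlap in that direction, as had 35.6%. The 3 genes listed for C. sinensis were past both limits in that species, and the 2 listed for C. grandis were past both in C. grandis, which repeats the rule. The C. grandis response minus the C. sinensis response was -3.49 on the log2 scale for Cs8g18760, -2.40 for Cs1g12410, -1.97 for Cs3g03130, -1.60 for Cs2g11750 and 0.77 for Cs7g22250. These differences were not tested, since a call in 1 species had chosen the genes.

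The species were next compared at the same Al level. Reads of both species were placed on the genome of C. sinensis, and how much of a C. grandis level is lost in that way was not tested, so a difference between species is less sure than one within a species. In control roots 0 of the 5 genes passed both limits for C. grandis over C. sinensis, against 18.1% of 19324 genes, and 0 passed the adjusted p alone, against 37.8%. Cs2g11750 and Cs3g03130 had unadjusted p of 0.0317 and 0.0300 by limma. Control libraries had also taken part in choosing the genes, so these p-values and counts are not an independent test and nothing is read from them.

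Cs7g22250 averaged 9.03 ± 1.29 FPKM in C. grandis control, against 9.03 ± 0.375 FPKM in C. sinensis control (SD, n = 2 each). Its log2 difference was -0.01, with a 95% interval of -0.39 to 0.38. Cs1g12410 averaged 91.3 ± 5.99 FPKM in C. grandis control, against 86.1 ± 9.91 FPKM in C. sinensis control, a log2 difference of 0.09 with an interval of -0.19 to 0.36.

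The other 3 genes were lower in both C. grandis control libraries than in both C. sinensis control libraries. The log2 difference was -0.83 (interval -1.75 to 0.09, adjusted p = 0.129 by limma) for Cs8g18760, -0.38 (-0.70 to -0.05, adjusted p = 0.0732) for Cs2g11750 and -0.44 (-0.82 to -0.06, adjusted p = 0.0704) for Cs3g03130. None passed the adjusted p, in libraries that had also taken part in choosing the genes. Of all tested genes, 41.6% were lower in C. grandis control with no overlap.

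In +Al roots the species stood further apart. The libraries are those that chose the genes, so these values are given with no test. Cs8g18760 averaged 3.89 FPKM in C. grandis +Al, against 71.5 FPKM in C. sinensis +Al, a log2 difference of -4.32 ± 0.43 (SE). The log2 difference was -2.41 ± 0.54 for Cs3g03130, -2.31 ± 0.19 for Cs1g12410 and -1.98 ± 0.21 for Cs2g11750. Cs7g22250 ran the other way, with 21.6 ± 4.31 FPKM in C. grandis +Al and 12.6 ± 0.565 FPKM in C. sinensis +Al (SD, n = 2 each), a log2 difference of 0.76 ± 0.24 (SE). Of the 5 genes, 4 lay past both limits as lower in C. grandis, where 19.6% of all tested genes lay in that direction and 31.7% in either. Because these libraries chose the genes, nothing is read from that count. Without 1 or the other C. sinensis +Al library that count was 1.

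**Figure D3:**
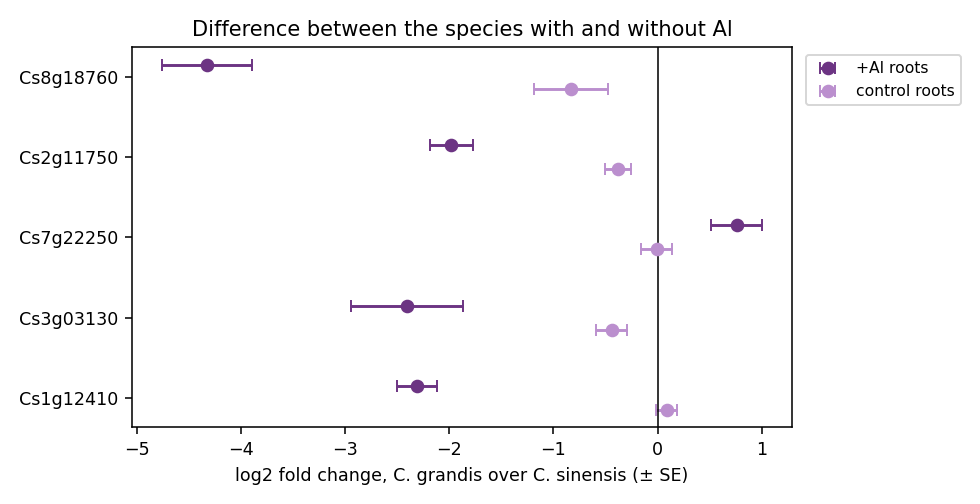
Log2 fold change of C. grandis over C. sinensis for each gene in +Al roots (dark) and control roots (light), with SE from limma. In control roots every gene lies between -0.83 and 0.09, while in +Al roots 4 genes lie at -1.98 or lower and Cs7g22250 at 0.76.

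Cs8g18760 has a HAD-like neighbour, Cs8g18750, whose ID is the one just before it and which the study had also listed. Cs8g18750 had 38.2 and 32.5 FPKM in C. sinensis +Al, against 15.6 and 15.6 FPKM in C. sinensis control. In C. grandis it had 11.7 and 10.5 FPKM in +Al, against 14.9 and 10.7 FPKM in control roots. Its log2 fold change was 1.17 ± 0.097 in C. sinensis and -0.19 ± 0.31 (SE, adjusted p = 0.775 by limma) in C. grandis.

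The 2 neighbours did not keep a fixed proportion. Cs8g18760 had 1.83 and 2.26 times the FPKM of Cs8g18750 in C. sinensis +Al, against 0.841 and 1.41 times in C. sinensis control. It had 0.485 and 0.203 times its FPKM in C. grandis +Al, against 0.834 and 0.685 times in C. grandis control. The ratio therefore moved in opposite directions with Al in the species, with no overlap in either, and this difference was not tested. Near-identical copies can share reads, which would make their separate levels uncertain, and how alike the pair is in sequence was not analysed here.

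**Figure D4:**
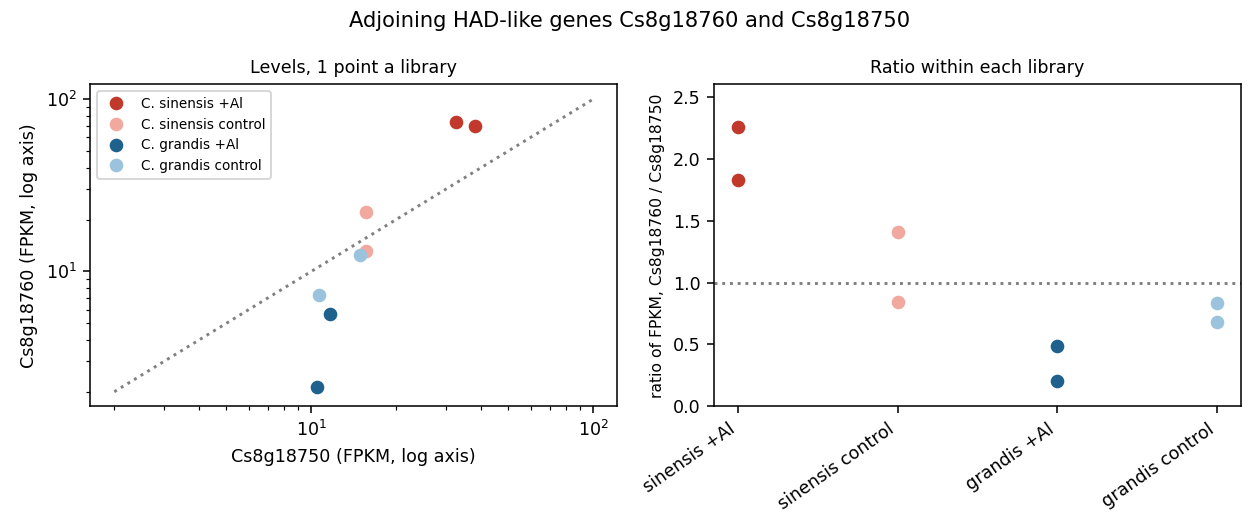
Left, FPKM of Cs8g18760 against that of its neighbour Cs8g18750 on log axes, 1 point a library, with a dotted line where both are equal. Right, the ratio of the 2 levels within each library, which is 1.83 and 2.26 in C. sinensis +Al and 0.485 and 0.203 in C. grandis +Al.

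The 3 HAD genes were set against the other genes described as HAD-like hydrolases. Descriptions covered 43.0% of genes, so that family members may be missed. In C. sinensis 1 of the 18 others tested rose, Cs8g18750, which the study had itself listed on these libraries, and 0 fell, with a median log2 fold change of 0.289 beside -0.002 over all genes. In C. grandis 0 of 19 passed both limits, with a median of -0.024 beside -0.014. Over all tested genes 8.53% passed both limits in C. sinensis and 12.5% in C. grandis. Below the fold limit, the adjusted p by limma was at most 0.05 for 5 others in C. sinensis: Cs3g18450 (log2 fold change 0.81), Cs5g09200 (0.66), orange1.1t01792 (0.27) and Cs5g29180 were higher and orange1.1t03953 (-0.68) was lower in +Al. By the same measure Cs9g06670 was lower in C. grandis +Al (log2 fold change -0.72, adjusted p = 0.0157 by limma) and orange1.1t01792 higher (0.81, adjusted p = 0.0252). Over all genes, at any fold change, the adjusted p alone was passed by 3558 higher and 3376 lower of 19152 in C. sinensis. In C. grandis it was passed by 1233 higher and 1743 lower of 18677. No response of the family is read from these HAD-like genes, which were named after their values were seen. Cs5g29180, described as a HAD subfamily IIIB acid phosphatase, came closest to Cs8g18760 in its pair of values, with 0.96 in C. sinensis (adjusted p = 0.00384 by limma) and -1.05 in C. grandis (adjusted p = 0.146), and was picked out after its values were seen.

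**Figure D5:**
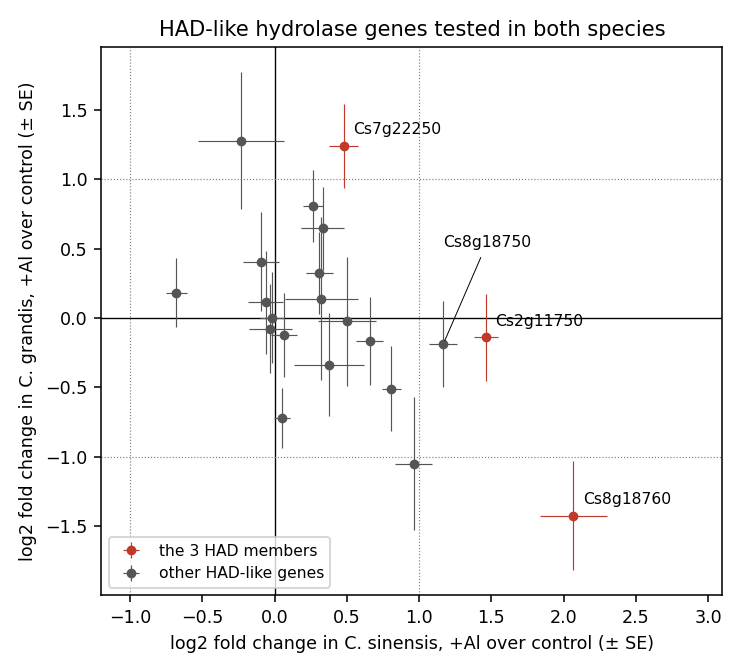
Log2 fold change of +Al over control in C. grandis against that in C. sinensis for the HAD-like genes tested in both species, with SE from limma and the fold limit dotted. The 3 genes of the phosphatase set are red and the others grey. Cs8g18760 lies at the lower right (2.07 and -1.43), Cs7g22250 at the upper middle (0.48 and 1.24), and most others lie within the limits.

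HAD-fold phosphatases with a named substrate numbered 3 tested genes, of which 0 passed in either species (medians -0.129 for C. sinensis, 0.04 for C. grandis). The other alkaline-phosphatase-like gene, Cs4g13940, did not pass either, with log2 fold changes of 0.11 for C. sinensis and -0.51 for C. grandis. Of the 2 lipid phosphate phosphatases, enzymes that act on phosphatidic acid and related lipids, Cs2g13120 rose in C. grandis. It had 82.4 and 113 FPKM in C. grandis +Al, against 42.4 and 36.5 FPKM in C. grandis control (log2 fold change 1.29, adjusted p = 0.000173 by limma). Its direction was opposite to that of Cs1g12410 in the same libraries.

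Acid phosphatases, secreted or vacuolar enzymes that free phosphate from organic esters, had 5 genes that rose and 1 that fell among 20 tested in C. sinensis, with a median of 0.396 beside -0.002 over all genes, of which 4.46% rose and 4.06% fell. In C. grandis 4 rose and 1 fell among 20, with a median of 0.267 beside -0.014 over all genes, of which 5.20% rose and 7.25% fell. PAP10 (Cs8g08310) rose by 1.18 on the log2 scale in C. sinensis and was at 0.18 in C. grandis (adjusted p = 0.754 by limma). PAP17 (orange1.1t02668) rose by 1.53 in C. sinensis and was listed at 0 in all C. grandis libraries. PAP2 (Cs8g08300) rose by 1.13 in C. sinensis and was at 0.66 in C. grandis (adjusted p = 0.246 by limma). A PAP15-like gene (orange1.1t02445) rose by 1.31 in each species. PAP15 (Cs5g27880) rose by 1.09 and PAP23 (Cs8g11340) by 1.38 in C. grandis, and both stayed under the fold limit in C. sinensis, at 0.40 and 0.90. PAP27 (Cs7g02530) fell in both species, with log2 fold changes of -3.50 for C. sinensis and -4.12 for C. grandis.

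The other 28 genes of the study's low-phosphorus list had 14 that rose and 3 that fell among 25 tested in C. sinensis (median 1.125), and 13 that rose and 4 that fell among 26 in C. grandis (median 1.199). That list was chosen by the study on these libraries, holds some of the acid phosphatases above and Cs8g18750, and is not independent evidence of a direction. Over all tested genes 8.53% passed both limits in either direction in C. sinensis and 12.5% in C. grandis. SPX2 (Cs4g17870), of a family of phosphate-sensing proteins, had 568 and 790 FPKM in C. grandis +Al, against 65.8 and 57.3 FPKM in C. grandis control. In C. sinensis it had 114 and 95.3 FPKM in +Al, against 35.3 and 36.1 FPKM in control roots, so that SPX2 was higher with Al in both species where Cs8g18760 and Cs1g12410 were on opposite sides of control.

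Across the 8 libraries the 5 genes fell into 1 set of 4 and 1 gene apart. Pearson's r on the log2 scale was 0.946 between Cs8g18760 and Cs3g03130, 0.907 between Cs8g18760 and Cs2g11750, and 0.863 between Cs8g18760 and Cs1g12410. It was lower for the other pairs of the set. Cs2g11750 had 0.787 with Cs3g03130 and 0.752 with Cs1g12410, and Cs3g03130 had 0.768 with Cs1g12410. Cs7g22250 had r of -0.674 with Cs1g12410, -0.493 with Cs3g03130, -0.431 with Cs8g18760 and -0.092 with Cs2g11750. These are descriptions over 4 groups of 2 libraries, in which species and Al set most of the spread. The genes had also been listed for their Al response in these libraries.

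By the same measure Cs7g22250 was most like Cs5g28260, an extra-large G-protein, Cs7g16400, a xylogalacturonan xylosyltransferase, and Cs1g14580, a coatomer subunit (r of 0.995 each). Cs2g11750 was most like Cs3g24520, which has no description, at 0.996, and next to Cs2g06330, a clathrin light chain, at 0.994, and to Cs6g15150 at 0.989. The gene most like Cs3g03130 was Cs1g19393 (0.998), at 1963 and 1974 FPKM in C. sinensis +Al, against 935 and 827 FPKM in C. sinensis control. It had 606 and 175 FPKM in C. grandis +Al, against 681 and 593 FPKM in C. grandis control, so that it shared the gap between the C. grandis +Al libraries seen for Cs3g03130. It was followed by Cs7g25030 and by Cs2g14920, a xyloglucan endotransglucosylase (0.989 each). Those most like Cs8g18760 were Cs2g12630 (0.996), Cs8g16430 (0.995) and Cs7g30190 (0.991), and those most like Cs1g12410 were Cs7g10110 (0.997), Cs1g01540 and Cs2g06730 (0.995 and 0.994).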

How the data were processed

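RNA of root tips was sequenced in 8 libraries, 2 for each of 4 groups named in the labels. The authors cleaned the reads, removed ribosomal RNA with Bowtie, mapped with TopHat2 to the C. sinensis genome, assembled transcripts with Cufflinks and calculated the deposited FPKM. The submitters' notes also name edgeR 3.0.0 and R 2.1.5. For the genome build, the sources used here give no name. The files hold no read counts, so counting error was not computed, and relative depth was read from values under 0.5 FPKM.

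Here limma 3.58.1 (R 4.3.3) was fitted with a trend on log2(FPKM + 0.1) over all genes averaging 1 FPKM or more in either group compared, with Benjamini-Hochberg adjustment over all of them. The pseudocount understates changes of low genes. Each comparison used its own 4 libraries. The spread that limma uses for a gene is drawn toward that of genes at a like level. The prior degrees of freedom, which set how strongly, were 36.2 for the Al response of C. grandis and 3.50 for that of C. sinensis. The planned test of the species difference in +Al roots is given without p. Tables and plots used Python 3.11.15, pandas 2.3.3, numpy 2.4.6 and matplotlib 3.10.9. The fits were also run on simulated data with planted changes. That simulation held no shift of a whole library, unlike C. grandis +Al library 1, and nothing is read from it here.

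The members and gene lists were chosen with earlier results of these data known. Beside all 5 members, the text names up to 4 called genes with the highest FPKM per family list and species, a family member with an ID within 20 of a member's, and the 3 genes most alike among those with at least 5 FPKM. Other genes named are the single other alkaline-phosphatase-like gene, HAD-like genes below the fold limit and 2 genes adjoining a member by ID, all chosen after their values were seen. Replicate numbers did not pair the samples. Alternatives were another scaling, filters, pseudocounts, the adjusted p alone, all 8 libraries sharing a spread, known genes only, the replicate block and each library left out. No genome sequence was used here.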

Additional observations from a re-analysis of the deposited data

Results flagged for a closer look

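Cs8g18760 and Cs1g12410 were picked out because every +Al library lay above the controls in C. sinensis and below them in C. grandis. In C. sinensis, 35.6% of all tested genes lay above the controls in this way. How many of all genes also lay below them in C. grandis was not computed, so the pattern is not shown to be rare. The C. grandis response minus the C. sinensis response was -3.49 on the log2 scale for Cs8g18760 and -2.40 for Cs1g12410. The difference was not tested for either gene, because a call in 1 of the species had chosen it.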

How the results depend on the processing

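With 2 pools per group and no counts, changes near the limits depended on single libraries. For each of the 5 genes the SE by limma of the Al response was larger in C. grandis than in C. sinensis. That SE leans on the spread of other genes, more so in C. grandis. Of the values computed for the 5 genes under the alternatives, 252 were counted as unchanged. Tested values counted so kept their direction and call. Untested ones kept their direction and stayed within the spread between libraries, and their calls were not compared. Cs3g03130 in C. sinensis, for example, was counted so at 0.925 without control library 2, under the fold limit. Of the tested values 7 lost a call, 4 gained 1 and 4 changed sign. A further 3 untested values moved by more than that spread. All sign changes were differences near 0 between control roots. Cs7g22250 went to 0.062 with median-ratio scaling and ranged from -0.152 to 0.137 without each library in turn, and Cs1g12410 ranged from -0.031 to 0.204. The causes were not tested.

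The genes called in C. grandis numbered 0 of 3 with median-ratio scaling and with no filter, and 0 to 1 without each library, where the 1 was Cs3g03130 without +Al library 1. With median-ratio scaling and without +Al library 1 together, chosen after seeing the data, Cs8g18760 had -2.28 (adjusted p = 0.0509 by limma), Cs3g03130 -1.97 (adjusted p = 0.0242), and 612 genes were higher. By adjusted p alone 2 genes of the set, 34 list genes (17 with both limits), and 3558 higher and 3376 lower genes were called in C. sinensis, and 3141 higher and 4159 lower between control roots. A filter at 5 FPKM left 907 higher and 1273 lower between control roots, against 1368 and 2120.

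Without each library in turn, list genes called ranged from 11 to 16 in both species. All genes called ranged from 434 to 712 higher and 772 to 1369 lower in C. grandis (972 and 1354 with all libraries), from 646 to 729 higher and 544 to 801 lower in C. sinensis (855 and 778), from 361 to 3123 higher and 900 to 4514 lower between +Al roots (2374 and 3863), and from 451 to 1232 higher and 761 to 2424 lower between control roots. The species difference in +Al roots held 1 to 4 genes of the set.

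Libraries of the same replicate number did not deviate together (r of -0.008 within C. sinensis, 0.035 within C. grandis, -0.055 between +Al roots and 0.013 between control roots), so they share only a number. With replicate number as a block, 839 higher and 778 lower genes were called for the Al response of C. sinensis, 660 and 1059 for that of C. grandis, 2582 and 4032 between +Al roots and 1358 and 2098 between control roots. The block changed no call of the 5 genes, and the adjusted p of Cs8g18760 in C. grandis was 0.0404.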

Other observations

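The ID next after Cs3g03130 is Cs3g03135, a gene with no description, picked out after its values were seen. It had 98.8 and 143 FPKM in C. grandis +Al, against 309 and 295 FPKM in C. grandis control. In C. sinensis it had 22.7 and 24.8 FPKM in +Al, against 31.9 and 42.3 FPKM in control roots. It was thus lower with Al in both species with no overlap, where Cs3g03130 was higher with Al in C. sinensis. Whether the 2 genes overlap on the chromosome was not analysed here.

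The gene whose ID comes next after Cs8g18760, Cs8g18770, a mitochondrial FTSH protease also picked out after its values were seen, had 46.2 and 47.1 FPKM in C. sinensis +Al, against 48.3 and 52.1 FPKM in C. sinensis control, so that the higher level of Cs8g18760 and Cs8g18750 with Al was not seen for it. In C. grandis it had 41.2 and 59.0 FPKM in +Al, against 50.7 and 52.6 FPKM in control roots, and the groups overlapped.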
